A study of Mus musculus with 51 samples.

Results

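Elof1 encodes elongation factor 1, a small zinc-binding protein that rides on RNA polymerase II as it moves along a gene. It was 1 of 6248 genes with values in 51 captured regions of the mouse cochlea, and it was chosen by its measured signal, which was higher after noise than after mock exposure in both kinds of region. Those levels are therefore given as a description, with no test. Whether Elof1 differed between the kinds of region was not used to choose it and was tested. The test after noise shares its noise values with the choice, so it is not wholly independent of it.

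ELOF1 joins the elongating polymerase beside the SPT4-SPT5 complex and helps it pass through chromatin. When the polymerase stalls at damaged DNA, ELOF1 takes part in the ubiquitination of the stalled enzyme and in calling the proteins of transcription-coupled repair, the pathway in which CSB, CSA and UVSSA act. In the cochlea the cell bodies of spiral ganglion neurons lie among Schwann cells and satellite glia, and loud sound can damage both these neurons and the sensory epithelium they serve.

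The regions lay on fresh-frozen cochlear sections, 6 µm thick, of male mice of the CBA/CaJ strain that were 16 weeks old. Each treatment had 5 animals. GeoMx releases barcoded probes from a chosen piece of tissue and counts them by sequencing. The noise animals had 2 h of broadband sound at 100 dB SPL and the mock animals had no noise. For both treatments the sample titles add a further 4 h, while the series' design text puts collection right after the exposure. By title there were 16 mock neuron regions, 14 mock supporting-cell regions, 13 noise neuron regions and 8 noise supporting-cell regions. Each region also carried the number of a captured area, and a neuron and a supporting-cell region with the same number were taken as the pair from one place. The 2 treatments had separate sets of areas, so treatment and any effect of slide or scan cannot be told apart. The labels did not tie regions or areas to animals. Regions outnumber the 5 animals of each treatment, so some share an animal and each p-value given here is too small.

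In noise neuron replicate 6 every value was equal and it was left out. In noise supporting-cell replicate 7 the Elof1 entry was a letter and counts as missing. That left 49 regions with a number. The values are signals that the authors scaled to the same upper quartile, 3.12, in each region, and dividing by the lowest value of a region gave back reads. In mock neuron replicate 4 that lowest value stood in 70.6% of genes. Whether the lowest value stands for 1 read or for none cannot be told. It was counted as 1 read here, also in the totals. Total reads ran from 9607 to 88156 per region. Reads are not independent molecules here, so the read intervals cover counting error only.

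Neuron markers set the neuron-labelled regions apart. The summed signal of 10 neuron markers had a median of 241.9 in mock neuron regions and 66.3 in mock supporting-cell regions, with no overlap, and 187.3 and 81.5 after noise. The supporting-cell regions were marked by glia. The summed signal of 6 glia markers, such as Mbp of myelin, had medians of 19.5 and 50.7 in mock neuron and supporting-cell regions and 15.6 and 34.8 after noise. Of 9 markers of the supporting cells of the organ of Corti only Sox2 and Prox1 had values, with summed medians between 3.12 and 4.16 in the 4 groups. The title word supporting is kept below as the name of these regions.

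Elof1 lies on mouse chromosome 9, at 22112986 to 22117195 on the minus strand of GRCm38.p6 (gene ID 66126). The sequence just before its start is shown because the results turn on how much of this 1 transcript was present. It covers chr9:22117196-22117445 on the minus strand, the 250 bases before the start in RefSeq for GRCm38.p6, with a palindromic match to the NRF1 motif in capitals.

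Elof1 upstream sequence: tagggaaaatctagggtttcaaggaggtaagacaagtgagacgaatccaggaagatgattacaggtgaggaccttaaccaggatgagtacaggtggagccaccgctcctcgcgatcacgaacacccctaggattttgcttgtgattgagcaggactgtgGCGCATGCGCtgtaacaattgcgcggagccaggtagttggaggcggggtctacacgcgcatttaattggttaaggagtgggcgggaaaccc

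The letters GCGCATGC, bound by nuclear respiratory factor 1, begin 91 bases before the start, and their complement GCATGCGC overlaps them from 89 bases before it. One or the other is held by 2.26% of 32851 mouse promoter sequences of that length in the same table. The CCAAT box is present once, on the other strand, 27 bases before the start (33.8% of promoters hold CCAAT or its complement). The window holds no GAANNTTC and no TTCNNGAA, the paired units of a heat shock element, which 6.69% and 7.17% of promoters hold. It also holds no CCGGAAGT of ETS factors (2.88%) and no TGACGTCA of CREB (1.55%). These are matches of letters and were not tied to the measurements.

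Elof1 was low in mock regions of both kinds. In the 16 mock neuron regions its signal had a lowest value of 1.56, a median of 2.86 and a highest value of 8.32, with a mean of 3.44 ± 2.13 (SD, n = 16). In the 14 mock supporting-cell regions the lowest value was 1.04, the median 2.49 and the highest 9.36, with a mean of 3.85 ± 3.03 (SD, n = 14). Both groups spanned nearly the same range. Behind these signals stood a median of 5 reads (1 to 13) in neuron regions and 2.5 reads (1 to 9) in supporting-cell regions. In 3 of 16 and 6 of 14 regions Elof1 was at the floor of 1 read, and it lay above the negative probe in 13 of 16 and 8 of 14. At this depth a level in a single mock region is barely separated from background. If counted, 1 read carries a 95% Poisson interval of 0.0253 to 5.57, and a value at the floor may stand for no read.

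After noise every neuron region had Elof1 above the median of the mock neuron regions. The 12 noise neuron regions had a lowest signal of 4.68, a median of 8.13 and a highest of 19.8, with a mean of 9.67 ± 4.71 (SD, n = 12). Replicates 2, 5 and 1 were highest, at 19.8, 17.2 and 12.5, and replicates 13 and 8 were lowest, at 4.68 and 5.41. The groups overlapped: 6 of 12 noise regions lay above the highest mock region, and 11 of 16 mock regions lay below the lowest noise region. Reads had a median of 20 (4 to 38), none was at the floor, and all 12 regions lay above the negative probe. The mean after noise was 2.81 times the mock mean, and on the log2(signal + 1) scale the difference was 1.29 (SE 0.23).

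The highest Elof1 signals were in noise supporting-cell regions. The 7 regions with a number ran from 6.24 to 57.7 with a median of 27.0 and a mean of 27.9 ± 20.0 (SD, n = 7). Replicate 1 stood at 57.7 and replicate 4 at 51.5. Replicates 2 and 5 stood at 28.1 and 27.0, replicates 3 and 8 both at 12.5, and replicate 6 at 6.24. The top 4 lay above each of the 12 noise neuron regions, and the lowest lay inside the mock range. Against mock supporting-cell regions, 6 of 7 lay above the highest and 9 of 14 mock regions lay below the lowest noise region. The mean was 7.26 times the mock mean and the median 10.8 times the mock median, and the log2(signal + 1) difference was 2.49 (SE 0.48).

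**Figure D1:**
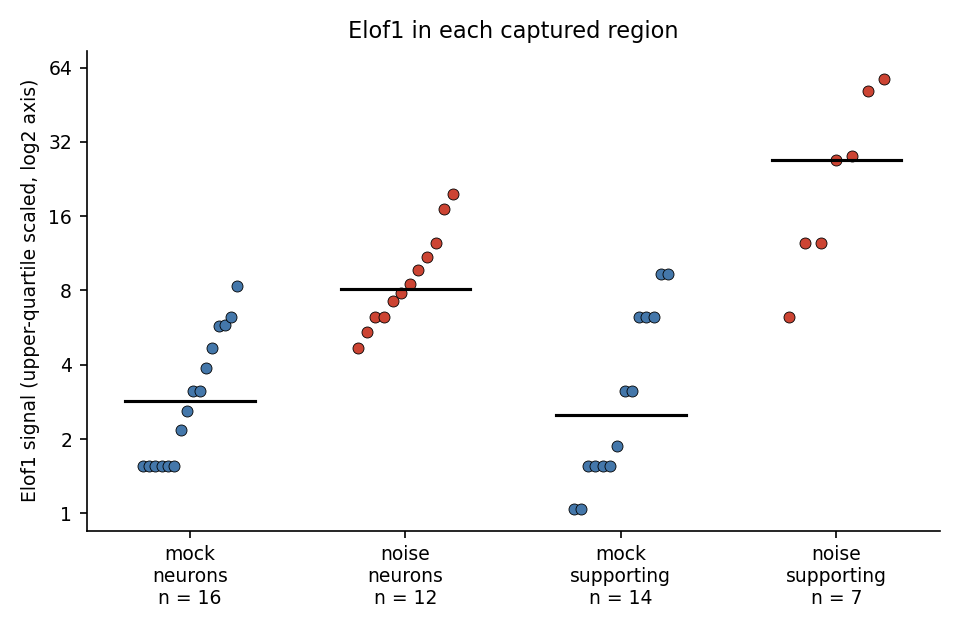
Elof1 signal (log2 axis) in each of 49 captured regions, by treatment and region type, with a line at each group's median. Medians were 2.86 and 2.49 in mock neuron and supporting-cell regions, 8.13 in noise neuron regions and 27.0 in noise supporting-cell regions, and the 7 noise supporting-cell points span 6.24 to 57.7.

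The noise supporting-cell regions with the highest signals, replicates 1 and 4, also held the most Elof1 reads. Replicate 1 of the noise supporting-cell regions held 74 Elof1 reads (95% Poisson interval 58.1 to 92.9) of 19154 in all, and replicate 4 held 66 of 20260. Replicate 6, the lowest, held 10 (4.80 to 18.4) of 25605. Total reads had a median of 12885 in mock and 16882 in noise regions of the supporting kind, and of 23494 and 26710 in neuron regions. Over the 7 noise supporting-cell regions Elof1 had r = -0.31 with log2 total reads, a weak relation over few regions. As a share of all reads the Elof1 medians were 0.0153% and 0.0154% in mock neuron and supporting-cell regions, 0.0476% in noise neuron regions and 0.153% in noise supporting-cell regions.

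Other measures moved with the treatment. The glia marker sum ran from 24.9 to 45.2 after noise and from 39.5 to 96.7 after mock in supporting-cell regions, and the neuron marker sum ran from 102.9 to 231.3 after noise and from 157.5 to 382.0 after mock in neuron regions. The mean log2 signal over 568 olfactory receptor genes, which cochlear cells are not known for, had medians of 1.44 and 1.58 in mock and noise neuron regions and 1.63 and 1.73 in mock and noise supporting-cell regions. The negative probe had medians of 0.955 and 1.08 in neuron regions and of 1.53 and 1.34 in supporting-cell regions. Within the noise supporting-cell regions Elof1 had r = -0.65 (rho -0.85, n = 7) with the neuron marker sum, r = -0.19 with the glia marker sum and r = 0.25 with the olfactory receptor mean. The part of these measures in the Elof1 level was not tested. Fewer cells of a type and less RNA per cell cannot be told apart in such regions.

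After mock exposure Elof1 did not differ measurably between the kinds of region, and after noise it was higher in supporting-cell regions. In the limma fit over all genes, with captured area as a random block, the neuron minus supporting difference under mock was -0.02 on the log2(signal + 1) scale (SE 0.20, 95% interval -0.42 to 0.38, limma adjusted p 0.96). A difference of a size within that interval could not be seen here. In this comparison 20.0% of 4686 genes were called at a limma adjusted p below 0.05, 13.8% higher and 6.19% lower in neuron regions. Under noise the Elof1 difference was -1.21 (SE 0.26, 95% interval -1.72 to -0.69, limma adjusted p 0.000239), where 8.28% of genes were called, 6.94% higher in neuron and 1.34% higher in supporting-cell regions. The noise values behind this p also entered the choice of Elof1, so it is not wholly independent of that choice. Elof1 varied more than genes of a similar mean (its own SD was 0.77 and the SD used by limma 0.562), so its limma SE and p are smaller than its own spread gives. The fit took 1 SD for all 4 groups. The group SD of Elof1 was 1.11 in 7 noise supporting-cell regions and 0.58 in 12 noise neuron regions. For the noise comparison the limma interval is therefore too narrow and the p too small. With noise areas 2 and 6 left out, a choice made after seeing that they held the highest supporting-cell values, the difference was -0.80 and no longer called (limma adjusted p 0.0953).

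Pairs from the same area show the same order. Of 13 noise areas, 6 had a number in both regions, and in each of these 6 the supporting-cell region was higher. In area 2 the neuron and supporting-cell signals were 19.8 and 57.7, in area 3 they were 8.46 and 28.1, and in area 7 they were 10.9 and 27.0. These 3 areas had the widest steps, from 2.48 to 3.32 times the neuron value. Area 12 stood at 7.28 and 12.5, area 4 at 9.70 and 12.5, and area 8 at 5.41 and 6.24. The last pair rests on 26 and 10 reads (95% Poisson intervals 17.0 to 38.1 and 4.80 to 18.4), and after scaling these intervals overlap. The mean neuron minus supporting difference was -0.99 on the log2 scale (SD 0.63, n = 6 areas, lower in 6 of 6), with p = 0.03125 by a two-sided exact sign-flip permutation test, the smallest p that 6 areas allow. As shares of each region's reads, a form added after the data were seen, the difference was -1.15 (SD 0.63) with the same p. Both forms use noise values that also entered the choice of the gene.

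Mock pairs had no common direction. Of 14 areas, the supporting-cell region was higher in 5, the neuron region in 6, and 3 were equal. The mean neuron minus supporting difference was 0.05 (SD 0.97, n = 14 areas; two-sided exact sign-flip permutation p = 0.839). The widest mock steps were in area 10, with 1.56 and 6.24 (1 and 4 reads), and in area 17, with 3.12 and 1.04 (6 and 1 reads). All 3 equal pairs stood at 1.56 on 1 or 2 reads, so a step at this depth could be hidden.

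**Figure D2:**
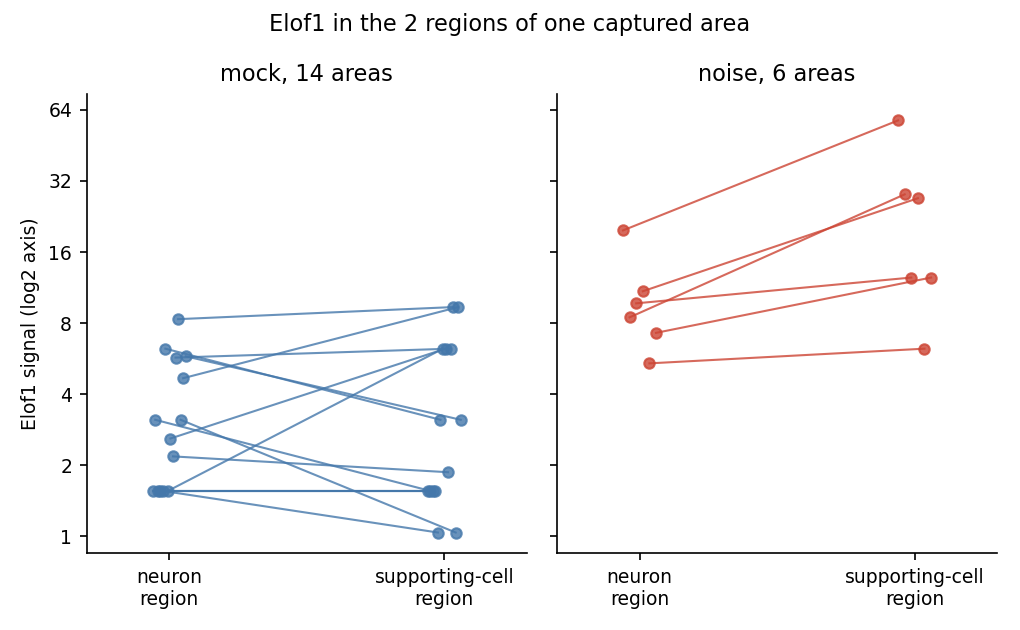
Elof1 signal (log2 axis) in the neuron and the supporting-cell region of each captured area, one line per area, for 14 mock areas and 6 noise areas. All 6 noise lines rise toward the supporting-cell region, by 1.15 to 3.32 times, while 5 mock lines rise, 6 fall and 3 are level.

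Set against each other, the noise and mock pairs had neuron minus supporting differences that lay apart by -1.04 on the log2 scale (noise minus mock, two-sided exact permutation of the treatment over 20 areas, p = 0.0299 over 38760 splits). The limma fit gave the same term as -1.19 (SE 0.33) with a limma adjusted p of 0.51 over all genes. At that level it called 0% of genes, with 287 of 4686 (6.12%) at an unadjusted p below 0.05, and edgeR and DESeq2 on the reads also called 0. This term is built from the noise and mock values on which Elof1 was chosen, so it is a description and the p of 0.0299 is not independent support for it.

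Areas high in one kind of region tended to be high in the other. Over the 6 noise areas log2 signal had r = 0.90 (rho 0.78) between neuron and supporting-cell regions. It had r = 0.42 without the 2 areas farthest from the median, so the relation rests on those areas. Over the 14 mock areas r was 0.57 (rho 0.54) and 0.48 without 2 areas. Both regions of an area were taken to come from one place, and reads were few, so these are descriptions of these areas.

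The level also followed the number of the captured area, in opposite directions in the 2 treatments. In mock neuron regions r with area number was 0.69 (rho 0.69, n = 16; 0.61 without the 2 farthest areas), and in mock supporting-cell regions 0.53 (rho 0.52, n = 14; 0.54). In noise neuron regions it was -0.75 (rho -0.77, n = 12; -0.68), and in noise supporting-cell regions -0.55 (rho -0.72, n = 7; -0.31). Few genes did so as strongly: 0.213% of the other genes tested reached that r in mock neuron regions and 0.491% in noise neuron regions, against 2.86% and 8.81% in the supporting-cell regions. What the area number stands for (slide, section, animal or order of capture) is not given in the labels.

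The contrast of treatments was therefore not even along the areas. The split at area 8 was drawn after seeing the values. In areas 1 to 7 the 6 mock neuron regions stood between 1.56 and 3.12 and the 6 noise neuron regions between 8.46 and 19.8, with no overlap. In the later areas the 10 mock neuron regions ran from 1.56 to 8.32 and the 6 noise neuron regions from 4.68 to 7.80, so here the noise range lay inside the mock range, with medians of 4.29 and 6.24. Supporting-cell regions were alike. In areas up to 7 the 5 mock regions lay between 1.04 and 1.56 and the 5 noise regions between 12.5 and 57.7. In later areas the 9 mock regions reached from 1.04 to 9.36, and the 2 noise regions stood at 6.24 and 12.5. Area numbers of the 2 treatments are not matched, and whether area number has a part in the treatment difference was not tested.

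**Figure D3:**
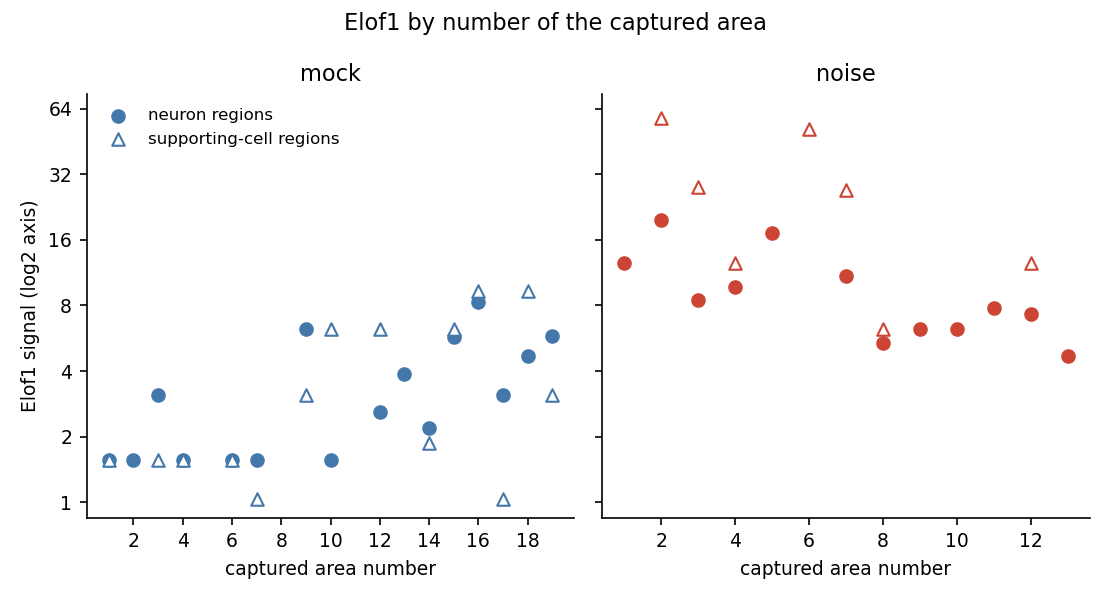
Elof1 signal (log2 axis) against the number of the captured area for mock (left) and noise (right), with filled circles for neuron and open triangles for supporting-cell regions. Mock values lie between 1.04 and 3.12 up to area 7 and reach 9.36 later, while noise neuron values are 8.46 or more up to area 7 and 7.80 or less from area 8 on.

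Elof1 was among the most variable genes in supporting-cell regions. The SD of its log2(signal + 1) was 1.11 in noise supporting-cell regions, rank 1 of 4686 genes, ahead of Slc23a1, a vitamin C transporter, at 1.07. In mock supporting-cell regions the SD was 0.87, rank 6. In neuron regions it was 0.65 under mock (rank 240) and 0.58 under noise (rank 866). Among genes whose mean signal in the same group was within 1.2 times that of Elof1, itself included, it ranked 1 of 5 in noise supporting-cell regions and 4 of 506 in mock supporting-cell regions, and 83 of 736 and 19 of 70 in mock and noise neuron regions. With 5 genes at its level the first of these ranks says little. These ranks were read after the values of Elof1 were known.

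**Figure D4:**
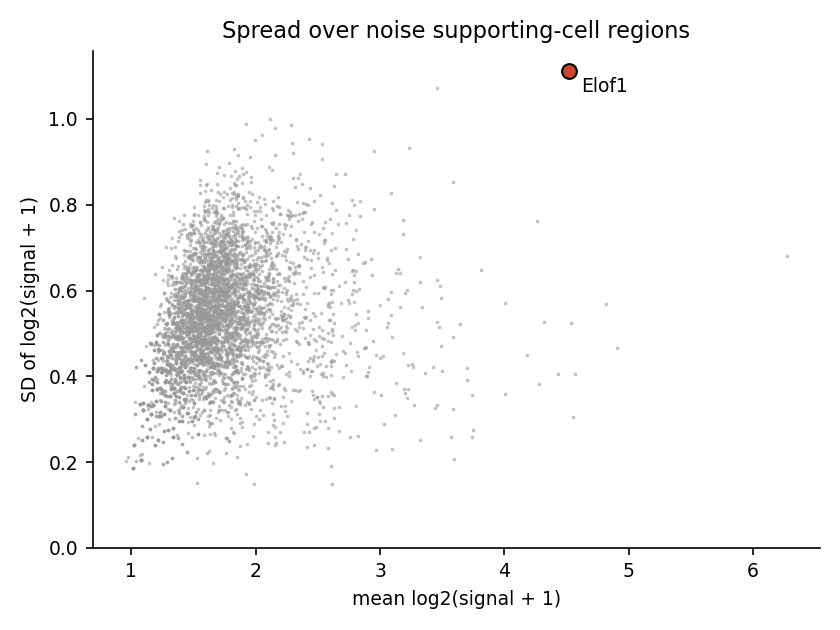
SD of log2(signal + 1) over the noise supporting-cell regions against the mean, one grey point for each gene tested and Elof1 in red. Elof1, at an SD of 1.11, is the highest point of 4686.

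Genes that varied with Elof1 among the 19 noise regions were ranked by Pearson r on log2(signal + 1) after the mean of each region type was taken away, over 2326 genes. The r over all these genes ran from -0.83 to 0.70 with the middle 95% between -0.50 and 0.44. The genes below are the ends of that ranking and carry no test. The highest were Selenoo (0.70), a mitochondrial selenoprotein, Ppp6r1 (0.66), a regulatory subunit of protein phosphatase 6, and Pdgfa (0.63), a platelet-derived growth factor chain. Rhbdd3 (0.62), a rhomboid-family protein, and Olfr318 (0.61), an olfactory receptor, came next. By Spearman rank 4 of these 5 were again among the highest 5.

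Among mock regions the same 5 genes had r nearer 0. Over 30 mock regions r with Elof1 was 0.21 for Selenoo, 0.12 for Ppp6r1, -0.11 for Pdgfa, -0.28 for Rhbdd3 and 0.23 for Olfr318. All 5 rested on few reads: their median reads ran from 2.5 to 6.5 in noise neuron regions and from 2 to 5.5 in noise supporting-cell regions. Ppp6r1 showed the relation best in supporting-cell regions (r = 0.93, n = 7, against 0.28 in 12 neuron regions). Its signal was 10.9 in replicate 1 and 7.80 in replicate 4, where Elof1 was highest, and 1.87 in replicate 6, where Elof1 was lowest.

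Gpx1, the glutathione peroxidase that removes hydrogen peroxide, lay at the other end (r = -0.83, rho -0.85). In noise neuron regions its r was -0.79 (n = 12) and in noise supporting-cell regions -0.85 (n = 7). In the 4 supporting-cell regions highest in Elof1 its signal was between 1.04 and 1.56, that is 1 or 2 reads, and in the 3 lowest between 4.68 and 6.24, 6 to 9 reads. In noise neuron replicates 2 and 5, the 2 highest in Elof1, Gpx1 was at 3.12, its lowest neuron value. Ppp1r9b, which encodes spinophilin of dendritic spines (r = -0.74), and Irx1, an Iroquois homeobox factor (r = -0.73), were next, and all 3 were again the lowest 3 by Spearman rank. In mock regions r was -0.16 for Gpx1, 0.03 for Ppp1r9b and 0.12 for Irx1. Median reads in noise supporting-cell regions were 2.5 for Gpx1, 4 for Ppp1r9b and 1 for Irx1.

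Of these 3 opposite genes 2 were higher in neuron regions under mock. Gpx1 stood at 6.18 ± 2.67 (SD, n = 16) in mock neuron and 3.16 ± 2.13 (SD, n = 14) in mock supporting-cell regions (log2 difference 0.82, SE 0.20, limma adjusted p 0.000591). It was also higher in neuron regions after noise (0.75, SE 0.25, limma adjusted p 0.038), a call lost in 8 of 12 alternatives. Irx1 was higher in mock neuron regions (0.62, SE 0.19, limma adjusted p 0.00837), and Ppp1r9b had an estimate of 0.46 (limma adjusted p 0.0847). The mock calls of Gpx1 and Irx1 were lost by DESeq2 (adjusted p 0.0551 and 0.128) and with the olfactory receptor covariate (limma adjusted p 0.365 and 0.126). Between noise and mock none of these 8 genes was called in either region type. Of all genes only 0.662% were called there in neuron and 0.384% in supporting-cell regions, so this says little about the 8.

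**Figure D5:**
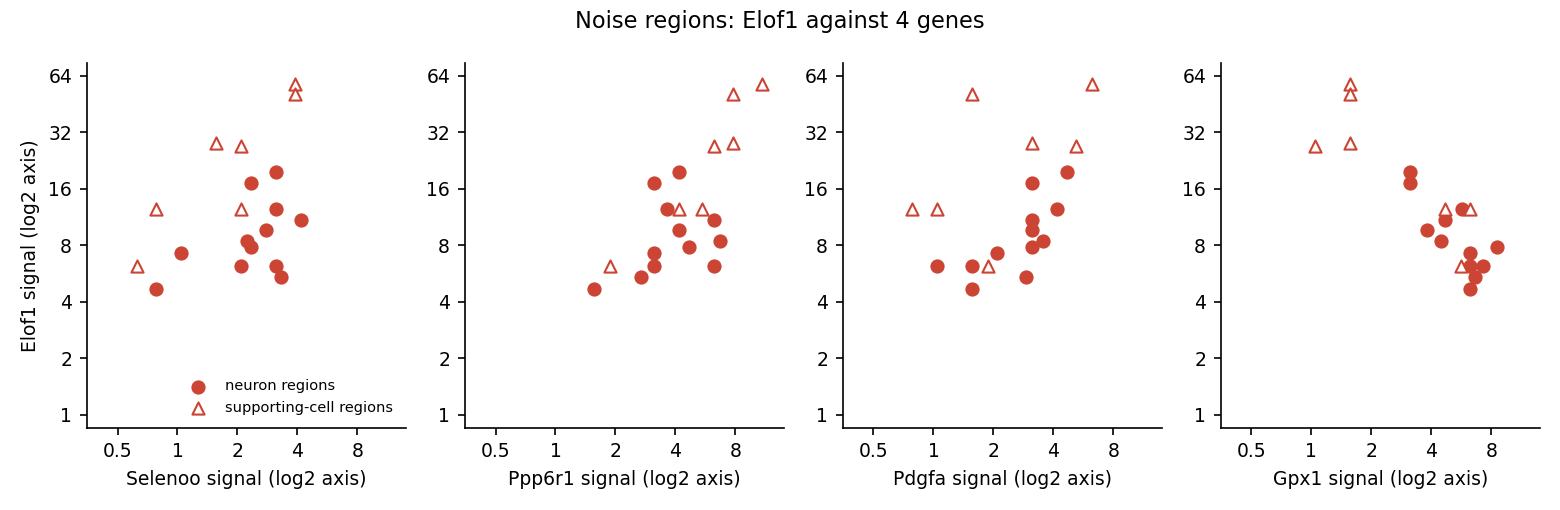
Elof1 signal against the signal of Selenoo, Ppp6r1, Pdgfa and Gpx1 (both log2 axes) in 19 noise regions, with filled circles for 12 neuron and open triangles for 7 supporting-cell regions. Elof1 rises with the first 3 genes and falls with Gpx1 (r = -0.83 within region type), which stays at 1.04 to 1.56 in the 4 highest supporting-cell regions.

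Over all 49 regions with no mean taken away, so that treatment and region type enter, the genes nearest to Elof1 were Ruvbl2 (r = 0.60), an ATPase of chromatin-remodelling complexes, Oas1b (0.58), of the interferon-induced oligoadenylate synthetase family, and Slc25a11 (0.56), the mitochondrial oxoglutarate carrier. Oog4 (0.53), an oogenesin, and Olfr1221 (0.53), an olfactory receptor, followed. The means of Ruvbl2 were 7.04 ± 2.31 and 10.2 ± 2.65 in mock and noise neuron regions and 7.51 ± 2.30 and 11.1 ± 4.76 in mock and noise supporting-cell regions (SD). It was not called in either comparison (limma adjusted p 0.26 and 0.499). It was the 1 gene of the 5 with r above 0.5 among noise regions alone (0.58). For Oog4 and Olfr1221 that r was 0.08 and -0.28.

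No tested gene of the transcription elongation and repair list was called between noise and mock, where few of all genes were called. Elof1 itself is not on that list. Of a list of 82 genes, 31 had values and 25 passed the filter on low signal: 14 of 42 elongation factors, 8 of 12 subunits of RNA polymerase II and 3 of 28 genes of transcription-coupled repair. Between noise and mock 0 of 25 were called by limma in neuron regions, where 0.662% of all genes were called, and 0 of 25 in supporting-cell regions, where 0.384% were. At such shares 0 of 25 says little about the list. At an unadjusted p below 0.05 there were 4 of 25 in neuron regions, against 13.5% of all genes, and 0 of 25 in supporting-cell regions, against 10.1%. By edgeR on the reads 0 of 25 were called in both. DESeq2 also called 0, but it gave an adjusted p to only 2 of the 25 in neuron regions and to 0 in supporting-cell regions. The median log2 difference of the 25 was 0.08 in neuron regions, against 0.02 over all genes tested, and -0.03 in supporting-cell regions, against -0.03.

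Among the named members of that list, Polr2g, the RPB7 subunit of RNA polymerase II, was at 2.72 ± 1.14 and 4.32 ± 2.09 in mock and noise neuron regions and at 2.73 ± 1.35 and 4.46 ± 3.04 in mock and noise supporting-cell regions (SD). Its log2 differences were 0.46 and 0.46 (limma adjusted p 0.3 and 0.506). Rpa1, the large subunit of the single-strand binding protein RPA, had 0.64 in neuron regions (SE 0.21, limma adjusted p 0.14) and 0.42 in supporting-cell regions (limma adjusted p 0.584). Polr2g and Rpa1 were picked for the size of their estimates. Among noise regions, within region type, r with Elof1 was -0.52 for Rpa1, 0.06 for Polr2g and 0.07 for Polr2b. Polr2b, the second largest subunit of the polymerase, had -0.12 and 0.16 (limma adjusted p 0.838 and 0.863). Tcea1, the cleavage factor TFIIS, fell below the filter. Supt4a and Supt5, the partners of ELOF1 on the polymerase, and Supt6, Polr2a, Ercc6, Ercc8 and Uvssa were not analysed here.

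Between the kinds of region under mock, 3 of the 25 were called. Eloc, elongin C, was higher in neuron regions, with 3.46 ± 1.83 against 1.69 ± 0.88 (log2 difference 0.66, SE 0.18, limma adjusted p 0.00341). Ssrp1, of the histone chaperone FACT, was also higher there (0.52, limma adjusted p 0.0343), and Polr2i, the RPB9 subunit, was lower (-0.51, limma adjusted p 0.0291). The share, 3 of 25, is under the background of 20.0%. Each call was lost in some alternatives: Ssrp1 on leaving out any of 11 single regions (adjusted p up to 0.0943) and Polr2i on leaving out any of 4 (up to 0.0695). By edgeR Eloc and Ssrp1 were not called (adjusted p 0.0689 and 0.164). After noise 0 of 25 were called between the kinds of region, where 8.28% of all genes were called. At an unadjusted p below 0.05 there were 3 of 25, against 19.0% of all genes. By edgeR 0 of 25 were called there, and by DESeq2 0 of the 7 with an adjusted p.

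None of the nearest genes along chromosome 9 that had values and passed the filter was called between noise and mock. Of all genes 0.662% were called in neuron and 0.384% in supporting-cell regions, so a lack of calls says little about the neighbours. Pigyl, of the first step of GPI-anchor synthesis, lies 39651 bases away and had log2 differences between noise and mock of 0.04 in neuron and 0.06 in supporting-cell regions (limma adjusted p 0.957 and 0.957). Elavl3, a neuronal RNA-binding protein 60840 bases away on the other side, had -0.16 and 0.12 (limma adjusted p 0.746 and 0.9). Elavl3 was higher in neuron than in supporting-cell regions under mock (0.53, limma adjusted p 0.0193). That call was lost by edgeR (0.0933), by DESeq2 (0.192), with the olfactory receptor covariate and without mock neuron replicate 9 (0.0705). Rp9 and Herpud2, farther off at 331116 and 2990931 bases, were likewise not called between noise and mock. Tmem205 and Rab3d, 185451 and 194787 bases away, fell below the filter.

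Letters in place of numbers touched Elof1 once. A letter stood in 66 entries of 65 genes, 59 of them genes with a letter in a noise supporting-cell region. Of those 59 genes 35 passed the filter on low signal. The sources used here do not say how a letter came to be entered.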

How the data were processed

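Signal values were deposited by the authors, 1 table per region and 1 for the series, scaled to a common upper quartile as the values show. DRAGEN and mm10 (GRCm38) are named in the submitters' processing notes. Dividing by each region's lowest value gave whole reads for 99.99% of values (tolerance 0.01) and in 1 gene it did not. Of 51 regions 50 were used. With R 4.3.3 and limma 3.58.1, lmFit and eBayes with a trend ran on log2(signal + 1) with 4 group means and captured area as a random block (correlation 0.0389). Genes at or above the 0.25 quantile of mean signal (1.85) were tested, 4686 of 6248, with Benjamini-Hochberg adjustment and a call at 0.05. Fold changes on this scale understate low genes. edgeR 4.0.16 and DESeq2 1.42.0 on recovered reads were alternatives. edgeR called 673 and 285 genes between region types under mock and noise and 164 and 8 between treatments in neuron and supporting-cell regions. In simulated noise region-type data 93% of 100 genes raised 3-fold and 100% of 100 raised 8-fold were called, and 0.267% of 4486 unchanged genes. The simulated spread was a fixed setting, not estimated from these data, so these rates may not hold for a gene as variable as Elof1.

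Likeness was taken among genes at or above a mean signal of 2.302 with no missing entry. Named genes were the 5 highest and 3 lowest in r among noise regions, the 5 highest over all regions, listed genes called in any comparison or central to elongation and repair, and the nearest 3 genes with values on each side. The members and lists were chosen with earlier results of these data known. Of 6248 symbols 6233 were current. Counts had been planned for edgeR, but the files held scaled signal. Replicate numbers did not pair regions. Some glia markers are not reported here and are left out of the sum.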

Additional observations from a re-analysis of the deposited data

Results flagged for a closer look

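Taking mock from noise, the neuron minus supporting difference of Elof1 within areas was -1.04 on the log2 scale (exact permutation p = 0.0299, two-sided), with all 6 noise areas higher in the supporting-cell region. The limma fit over all genes gave the term an adjusted p of 0.51, and limma, edgeR and DESeq2 called 0 genes. Elof1 was chosen on the same noise and mock values, so this p is not independent support.

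A check for outlying samples covered only the noise supporting-cell regions and the Elof1 differences within noise areas. Of 36 quantities checked, 2 had a sample far from the others, where chance gives about 1 in 20. Both were in noise supporting-cell replicate 2, the shallowest of its group at 11770 reads. Its negative probe stood at 1.893, with the other 7 between 1.241 and 1.445. Its Oas1b signal stood at 9.355, with the other 7 between 1.039 and 4.678. That signal was 6 reads, and replicates 1 and 8 of the group also held 6 reads, at 4.678. After scaling, 1 read stood for 1.559 in replicate 2 and for 0.780 in replicates 1 and 8. Elof1 in replicate 2 was 28.1, on 18 reads with the same scaling.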

How the results depend on the processing

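The Elof1 difference between kinds of region after noise kept its direction in all 12 alternatives (-1.72 to -0.80) and was called in 11; leaving out noise areas 2 and 6, added after seeing the data, gave -0.80 (adjusted p 0.0953). Leaving out 1 region at a time gave -1.48 to -0.99 (adjusted p 9.27e-06 to 0.00968). Under mock it was never called: the olfactory receptor covariate turned it to 0.46 (adjusted p 0.401), leaving out 1 region gave -0.097 to 0.082, and the within-area mean turned to -0.092 as shares of reads (p = 0.729, exact sign-flip). The gap difference ran from -1.46 to -0.97 on leaving out 1 region.

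Counts of genes called moved by over 1.5 times as follows. Region types under mock (939) gave 525 by DESeq2 and 412 with the olfactory covariate, and under noise (388) 178 by DESeq2. Noise against mock in neurons (31) gave 164 by edgeR, 127 by DESeq2, 3 with the covariate, 20 without noise areas 2 and 6 and 19 with the replicate block. In supporting-cell regions (18) it gave 11 without the filter, 8 by edgeR and 9 without those areas. Leaving out 1 region gave 874 to 979, 301 to 418, 11 to 35 and 3 to 21 in that order. The neuron count fell to 11 and 12 without noise neuron replicates 1 and 2, to 18 and 19 without 10 and 9, and to 19 without mock neuron replicate 10. The supporting count fell to 3 without noise supporting-cell replicate 7, 6 without 5, 8 without 8, and 11 without 1 or 4, and to 8, 10, 11 and 11 without mock supporting-cell replicates 12, 6, 8 and 9. The cause of these moves was not tested.

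Regions with the same replicate number in the 2 kinds did not deviate together (correlations -0.03 to 0.06 over 14 mock pairs and -0.04 to 0.03 over 7 noise pairs, none over 0.1). Pairs by captured area were also weakly related, at -0.006 to 0.061 over 14 mock and -0.008 to 0.106 over 7 noise pairs. By area, 7 of 14 mock and 2 of 7 noise supporting-cell regions lay closest to their own neuron region, against 1 and 0 by replicate number. With the replicate block the Elof1 difference after noise was -1.50 (adjusted p 9.76e-06) and under mock -0.11 (adjusted p 0.767). Mock values of 1 to 3 reads limit any contrast that uses them.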
